A study of Mus musculus with 87 samples.

Results

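Mouse embryonic stem cells (ESC) of the 129-B13 line that had lost Suz12 and then received a mutated copy of its long splice form, the libraries labelled KO-L3D, were compared with unmodified wild-type cells (WT) by sequencing of polyadenylated RNA. KO-L3D below stands for that label. Every gene whose mean normalised read number over the libraries (baseMean) was at least 10 in the authors' deposited table of this comparison was included, which gave 15166 of 26171 genes. The long form retains exon 4 of Suz12, the short form lacks it, and the copies were put back at the Rosa26 locus. Per the labels, the 3D mutation sits at position 196, downstream of exon 4; the labels do not say what 3D stands for. WT had 3 libraries and KO-L3D had 2. For context, values are also given for the Suz12 knock-out itself (KO, 3 libraries) and for knock-out cells rescued with the unmutated long form (KO-L, 2), the unmutated short form (KO-S, 2) and the short form with the 3D mutation (KO-S3D, 2). All were ESC of the same line grown in 20% serum with LIF, and every table of these lines used the same 3 WT libraries. The labels do not say whether a line is 1 clone, nor whether libraries of a line came from separate cultures, so p-values measure only the spread between these libraries, which may be technical.

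SUZ12 is a core subunit of Polycomb repressive complex 2 (PRC2), together with EED, the histone-binding proteins RBBP4 and RBBP7 and a methyltransferase, EZH2 or EZH1, which methylates lysine 27 of histone H3 (H3K27me3). Accessory subunits such as MTF2, PHF1, PHF19, JARID2, AEBP2 and EPOP guide the complex to CG-rich promoters, and Polycomb repressive complex 1 (PRC1) binds H3K27me3 through its CBX subunits. In ESC these complexes keep genes of later development, among them the Hox clusters and lineage transcription factors, at low expression, and ESC without PRC2 still self-renew.

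Promoter letters are shown for 4 genes on which the results turn, to set a Hox gene, an early-mesoderm and trophoblast gene, a trophoblast gene and a neuronal gene side by side. Each run is the 250 bases before the RefSeq start of the gene, 5′ to 3′ on the gene's strand (the plus strand for all 4), on build GRCm38.p6, with every CG in capitals.
Hoxd9, chr2:74697513-74697762: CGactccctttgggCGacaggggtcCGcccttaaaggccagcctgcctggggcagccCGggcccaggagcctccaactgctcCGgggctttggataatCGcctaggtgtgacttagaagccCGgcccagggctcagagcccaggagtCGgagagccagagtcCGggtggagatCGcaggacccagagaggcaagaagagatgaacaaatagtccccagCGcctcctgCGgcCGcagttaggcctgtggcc
Eomes, chr9:118477939-118478188: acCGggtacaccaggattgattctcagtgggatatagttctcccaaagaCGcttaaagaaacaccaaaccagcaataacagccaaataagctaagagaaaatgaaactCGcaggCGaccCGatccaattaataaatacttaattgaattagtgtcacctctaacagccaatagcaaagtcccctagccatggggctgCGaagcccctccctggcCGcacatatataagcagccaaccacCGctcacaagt
Elf5, chr2:103411848-103412097: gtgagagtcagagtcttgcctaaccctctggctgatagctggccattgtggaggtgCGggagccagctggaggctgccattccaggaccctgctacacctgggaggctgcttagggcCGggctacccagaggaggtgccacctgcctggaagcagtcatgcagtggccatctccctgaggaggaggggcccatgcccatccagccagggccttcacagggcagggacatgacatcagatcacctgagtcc
Crmp1, chr5:37241808-37242057: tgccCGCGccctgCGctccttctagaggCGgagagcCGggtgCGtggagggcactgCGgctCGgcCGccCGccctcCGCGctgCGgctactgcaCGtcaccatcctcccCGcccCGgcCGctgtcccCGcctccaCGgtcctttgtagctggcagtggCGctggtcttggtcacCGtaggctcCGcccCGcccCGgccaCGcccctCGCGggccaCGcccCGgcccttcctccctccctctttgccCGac
The Hoxd9 window held 13 CG, and 31.5% of all 32851 RefSeq windows of this length held as many or more. Eomes held 8 CG (43.0% of windows had as many or more), Elf5 held 2 (81.2%) and Crmp1 held 30 (5.94%). The median window held 6 CG, and 92.1% held at least 1. Start sites of Hoxd9, Eomes and Crmp1 lay within 2500 bp of a deposited Suz12 region and of a deposited H3K27me3 region, and that of Elf5 lay near neither. Hoxd9, Eomes and Elf5 were higher in KO-L3D and Crmp1 was lower, with values given below.

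The tables hold statistics of each comparison and no values of single libraries. Whole reads of each library were therefore recovered from baseMean for 14595 genes (96.2%), 14251507 to 18159865 reads per library, and divided by size factors; these are called scaled reads, and libraries carry arbitrary letters. Refitting 300 genes showed that the deposited fit pairs WT A with KO-L3D A and WT B with KO-L3D B, so the deposited fold changes rest on those 4 libraries and WT C has no partner. WT B stood apart from the other WT libraries: 9.1% of 10856 genes with a mean of at least 100 scaled reads differed 2-fold or more between WT A and B, 5.0% between B and C and 0.9% between A and C. Summed scaled reads of extraembryonic endoderm genes were 9516 in WT B against 508 and 458 in WT C and A, and 1441 and 949 in KO-L3D A and B. No preparation or sequencing date is given for the libraries, so differences between preparations and between lines cannot be told apart. The KO-L3D libraries differed 2-fold or more in 6.3% of genes. Of the 2572 genes with recovered reads that the deposited table calls, a limma fit that ignores the pairs called 2394 in the same direction. Leaving 1 WT library out of this unpaired fit gave 2461 without WT B, 1988 without WT A and 1453 without WT C. Among the 2572 genes, 5 had the opposite sign without KO-L3D A and 2 without WT B.

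A large share of the transcriptome differed between KO-L3D and WT. Of 15166 genes, 2791 (18.4%) passed an adjusted p of 0.05 in the table the authors deposited and are called here; 1254 were higher (8.27%) and 1537 lower (10.1%). Counts of called genes in the lists below can be read beside these shares. The median log2 fold change of all genes was -0.03 in the authors' deposited table. In the tables of the other lines, KO had 1789 genes higher and 1230 lower, KO-L 202 and 107, KO-S 620 and 525, and KO-S3D 293 and 169. Both KO-L3D libraries lay above all 3 WT libraries in 4391 of 14595 genes (30.1%) and below them in 4200 (28.8%). Among called genes with recovered reads the libraries did not overlap in 1206 of 1239 called higher (97.3%) and in 1316 of 1333 called lower (98.7%). In a limma fit without pairs, genes called among those with recovered reads numbered 4294, and 1509 without WT C, 5250 without WT B, 1659 without KO-L3D A and 1896 without KO-L3D B.

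**Figure D1:**
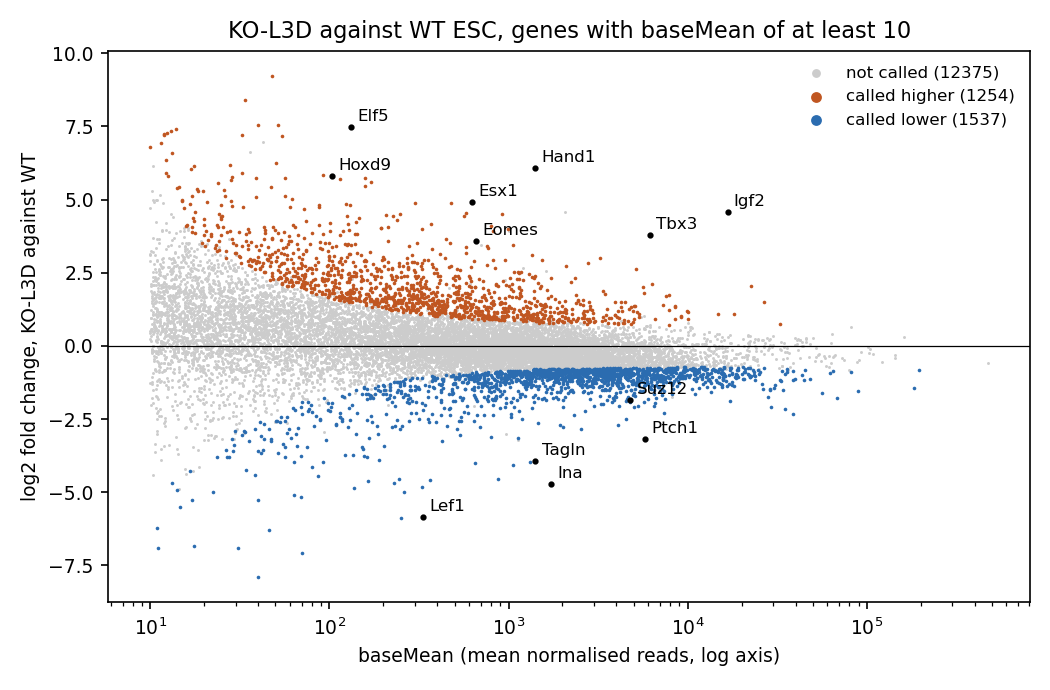
Each point is a gene with baseMean of at least 10; the x axis is baseMean (log axis) and the y axis the deposited log2 fold change of KO-L3D against WT. The 1254 genes called higher and 1537 called lower are coloured, and Hand1, Esx1, Igf2 and Tbx3 stand far above 0 while Ina, Tagln and Ptch1 stand far below.

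Suz12 mRNA was lower in both KO-L3D libraries than in any WT library. Scaled reads, given throughout in the order WT C, A and B and then KO-L3D A and B, were 4394, 5751 and 8541 in WT and 1578 and 2495 in KO-L3D. The authors' deposited table gave a log2 fold change of -1.85 ± 0.28 (SE; adjusted p 3.84e-09). The KO libraries had 1643, 2529 and 1228 scaled reads, a range that both KO-L3D libraries fell within, while KO-L had 3218 and 3633 and KO-S3D 4739 and 9658. KO-L3D minus KO was -0.03 in log2 fold change (95% interval -0.72 to 0.66), KO-L3D minus KO-L -0.80 (-1.57 to -0.02) and KO-L3D minus KO-S3D -1.78 (-2.77 to -0.79); after adjustment over all genes p was 0.997, 0.27 and 0.345. Suz12 mRNA in these libraries therefore does not check the rescue label, and protein was not measured here.

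Of the 6 genes for PRC2 core subunits, 5 were lower and the list median was -1.31, against -0.03 for all genes. Ezh2, the main methyltransferase in ESC, had 7453, 6352 and 6226 scaled reads in WT and 1763 and 2210 in KO-L3D. The libraries did not overlap, and the authors' deposited table gave -1.70 ± 0.28 (adjusted p 1.8e-07). Ezh2 was also lower than in KO-L (difference -1.45, adjusted p 0.00972) and KO (difference -1.52, adjusted p 0.00156), whose own log2 fold changes in the authors' deposited tables were -0.25 and -0.17. Ezh2 lies in the stretch of chromosome 6 described below. Eed, the H3K27me3-reading subunit, had 6197, 7070 and 7490 scaled reads in WT and 3349 and 5151 in KO-L3D, again without overlap, and -0.83 ± 0.29 (adjusted p 0.0279) in the authors' deposited table. Rbbp7 (-1.40) and Rbbp4 (-1.23) were the other falls, and Ezh1 was not called (-0.31) in the authors' deposited table. In KO, 4 of the 6 were lower with a median of -0.55. Of the 4 core genes with recovered reads, the limma fit called 1 lower without KO-L3D A and 3 without KO-L3D B.

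Among 7 accessory PRC2 genes, 2 rose and none fell, so 28.6% were called, against 18.4% over all genes. Phf1, whose protein binds methylated lysine 36 of histone H3, had 80, 56 and 143 scaled reads in WT and 477 and 495 in KO-L3D, with a log2 fold change of 2.40 ± 0.48 (adjusted p 2.29e-05) in the authors' deposited table. It was higher than in KO-L (difference 2.56, adjusted p 0.0391) and KO (difference 2.20, adjusted p 0.0483), and its log2 fold change in KO-S3D was 2.08. Epop, which links PRC2 to elongin, rose by 1.32 in the authors' deposited table. Of 21 PRC1 genes, 3 rose and 1 fell, a share near the 18.4% over all genes. The CBX subunit gene Cbx8 (6, 20 and 5 in WT, 172 and 56 in KO-L3D) rose by 3.18 in the authors' deposited table, and its libraries did not overlap. The PRC1 gene Bmi1 rose (119, 118 and 193 against 587 and 324) and Pcgf3 fell by 0.80 in the authors' deposited table, and none of the 21 differed from KO or KO-L in the difference test.

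**Figure D2:**
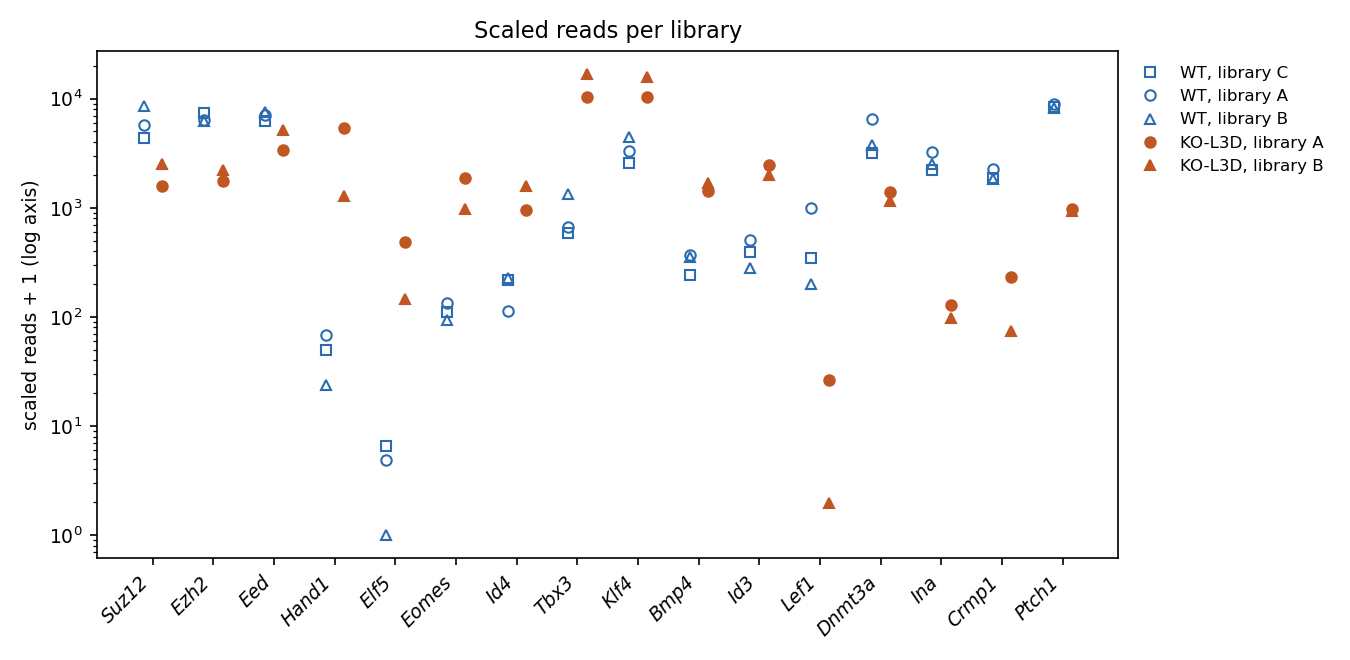
Scaled reads + 1 (log axis) of 16 genes in each of the 3 WT libraries (open symbols) and the 2 KO-L3D libraries (filled symbols); one point is one library. In each of these genes both KO-L3D points lie on the same side of all WT points, and for Hand1, Elf5 and Eomes library A lies above library B. All 16 are called genes, and 97.3% of genes called higher and 98.7% of those called lower show such a separation.

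A continuous stretch of chromosome 6 was lower in KO-L3D, and the rest of that chromosome was higher. Windows of 10 Mb with at least 15 genes of baseMean 100 or more numbered 224, of which 12 lay on chromosome 6. The 3 windows with the lowest medians were all on chromosome 6, at 50 to 60 Mb (-1.40), 40 to 50 Mb (-1.10) and 70 to 80 Mb (-0.79). The 8 windows with the highest medians were also all on chromosome 6 (0.28 to 0.61). All windows elsewhere lay between -0.67 and 0.25 in KO-L3D. Over all chromosomes the windows of the other lines ran from -0.38 to 0.24 in KO, -0.27 to 0.28 in KO-L, -0.46 to 0.29 in KO-S and -0.64 to 0.35 in KO-S3D.

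**Figure D3:**
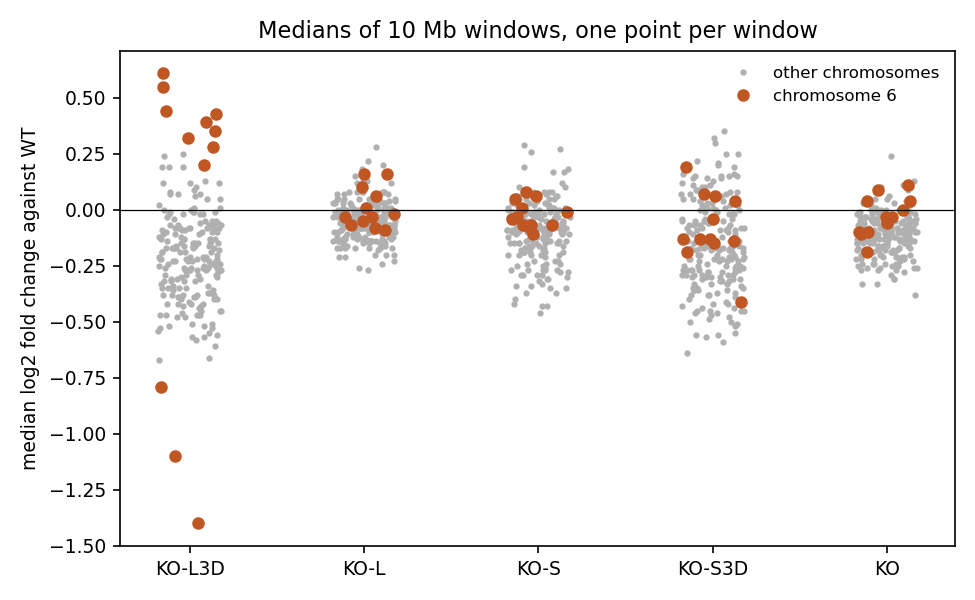
One point is one 10 Mb window; the y axis is the median deposited log2 fold change against WT, for each of the 5 lines on the x axis, with chromosome 6 in orange. Only in KO-L3D do orange points leave the range of the grey ones, from -1.40 at the bottom to 0.61 at the top.

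The bounds of the stretch were set from the values of its genes. From Agk to Stambp (chr6:40325076-83575826, GRCm38.p6, RefSeq gene spans), 120 genes of baseMean 100 or more had a median of -1.07; 105 had a log2 fold change below 0, 68 were called lower and 3 higher. The other 395 such genes of chromosome 6 had a median of 0.40, with 96 called higher and 10 lower, and 10892 genes of other chromosomes had a median of -0.16, with 858 called higher, 1378 lower and 6544 below 0. Called genes thus made up 59.2% of the stretch, 26.8% of the rest of chromosome 6 and 20.5% of the other chromosomes. In the same Agk to Stambp genes the medians were -0.03 in KO, 0.09 in KO-L, -0.03 in KO-S and -0.07 in KO-S3D. Both KO-L3D libraries showed it: relative to the other chromosomes, the stretch stood at -0.89 and -1.03 in KO-L3D A and B and between -0.09 and 0.15 in the other 12 libraries (114 genes). For the rest of chromosome 6 these values were 0.50 and 0.41 against -0.11 to 0.00 (367 genes). These are descriptions without a test. Copy number was not measured here, and its part in these values was not tested.

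Named genes of the stretch, chosen after their values were seen, show its course. Just before it, the kinase gene Braf (0.05) and Mrps33 (0.09) were not called in the authors' deposited table. Agk, a mitochondrial lipid kinase gene, had 1263, 975 and 1266 scaled reads in WT and 393 and 386 in KO-L3D, and fell by 1.54 in the authors' deposited table. Inside the stretch, Cul1, the scaffold of SCF ubiquitin ligases, had 6188, 6803 and 5103 against 1791 and 1511 (fall of 1.87). Cbx3, which encodes the heterochromatin protein HP1 gamma, fell by 2.30, Serbp1 by 1.75, the Wnt-responsive repressor gene Tcf7l1 by 1.61 and the RNA-binding protein gene Igf2bp3 by 1.30 in the authors' deposited table. Nod1, a sensor of bacterial cell walls, had 531, 595 and 543 scaled reads in WT against 30 and 20 in KO-L3D. In none of these genes did the libraries of the lines overlap where reads were recovered, except in Braf and Mrps33. Such separation was common: of all genes with recovered reads, 30.1% lay above all WT libraries in both KO-L3D libraries and 28.8% below. At the far edge Dguok fell by 1.57, Stambp was at -0.90 without a call and the homeobox gene Vax2, just beyond, rose by 5.59 in the authors' deposited table (11, 3 and 16 against 316 and 478). Vax2 also rose in KO (4.08) and KO-S3D (4.31), and the next gene, Tex261, was at 0.49 without a call in the authors' deposited tables. Of the 2791 called genes, 206 (7.4%) lay on chromosome 6, which holds 724 of the 15166 genes.

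**Figure D4:**
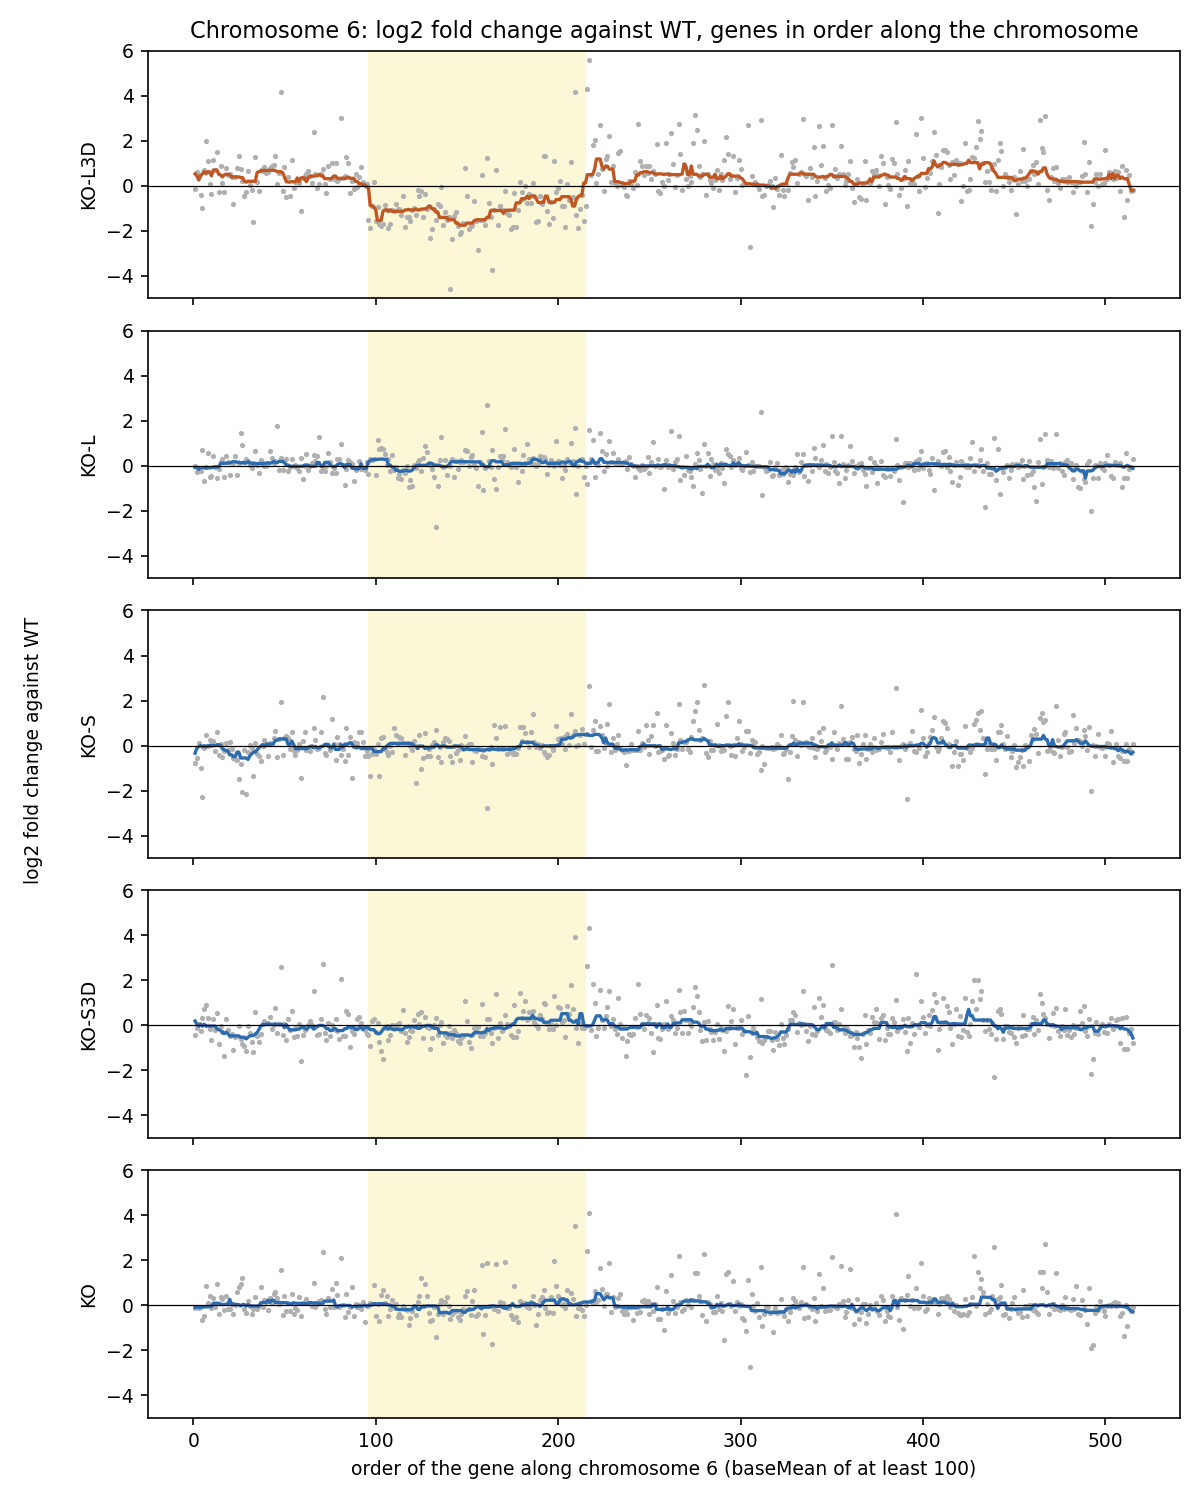
Genes of chromosome 6 with baseMean of at least 100 in their order along the chromosome (x axis) against the deposited log2 fold change to WT (y axis), with one panel for each line; the line is a running median of 15 genes and the shading marks Agk to Stambp. The median of the shaded genes is -1.07 in KO-L3D and between -0.07 and 0.09 in the other 4 panels.

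Hox genes, the homeobox genes that pattern the body axis and are classic PRC2 targets, were higher in KO-L3D. Of 39 listed, 26 passed the baseMean minimum; 18 were called higher and none lower, with a median of 5.06. The minimum is mostly passed through the KO-L3D libraries, so these 26 do not stand for all 39. Both KO-L3D libraries exceeded all WT libraries in 25 of the 26, and library A exceeded B in 25. Over all genes with recovered reads 30.1% lay above WT in this way. For genes that pass the minimum only through KO-L3D, lying above WT follows from that selection. Summed over the 26, scaled reads were 148, 164 and 243 in WT and 3428 and 1729 in KO-L3D. Hoxd9 had 2, 5 and 3 in WT and 362 and 128 in KO-L3D (5.80 ± 0.81, adjusted p 1.42e-10 in the authors' deposited table). Its level in KO was 207, 100 and 216, and in KO-L 83 and 4.

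Members of the other clusters had the same order of libraries. Hoxc10 had 3, 4 and 4 scaled reads against 193 and 94, and Hoxb9 5, 17 and 14 against 261 and 130; they rose by 5.03 and 3.54 in the authors' deposited table. Hoxa9 (3, 2 and 0 against 175 and 84) and Hoxa10 (0, 1 and 8 against 259 and 179) also rose, and their cluster lies inside the lowered stretch of chromosome 6. Hoxa13 and Hoxd3 were at 0 in all WT libraries and had 29 and 28, and 33 and 27, scaled reads in KO-L3D. Away from chromosome 6, 15 of 20 were called higher. KO had 26 of these 26 called higher, with a median of 4.8, and KO-L none, with a median of 1.94. Many of them, such as Hoxa9 (3.29) and Hoxc9 (3.68), had no adjusted p in KO-L and could not be called there. Of the 24 tested against KO and 10 against KO-L, none passed the difference test. The SE of these genes were wide, so this does not show that the lines are alike.

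Trophoblast genes, which specify the placental lineage, were mostly higher: 8 of 11 rose, none fell, and the median was 3.59 (KO 1.80, KO-L 1.61, KO-S3D 1.48). Some members, such as Elf5, reach the baseMean minimum only through KO-L3D, which tilts this median; with no minimum it was 2.57 over 12 genes. Hand1, a factor of trophoblast giant cells and early mesoderm, had 49, 67 and 23 scaled reads in WT and 5346 and 1277 in KO-L3D. Library A was thus above library B, and both were far above WT; the log2 fold change was 6.08 ± 0.36 (adjusted p 2.89e-59) in the authors' deposited table. Hand1 exceeded KO-L by 3.80 (adjusted p 9.06e-06) and KO by 2.95 (adjusted p 0.00253). In KO it had 532, 653 and 144 scaled reads, in KO-L 350 and 102, and in KO-S3D 5153 and 66.

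Elf5, a transcription factor of trophoblast stem cells, had 6, 4 and 0 scaled reads in WT and 485 and 144 in KO-L3D, and rose by 7.47 ± 1.00 in the authors' deposited table (adjusted p 2.36e-11). In KO it had 19, 17 and 7. Eomes, the T-box factor whose promoter is printed above, had 110, 133 and 92 in WT and 1875 and 977 in KO-L3D (3.59 ± 0.36, adjusted p 7.75e-21 in the authors' deposited table). Eomes exceeded KO-L by 1.99 (adjusted p 0.0216) and KO by 1.79 (adjusted p 0.0132). The trophectoderm factors Cdx2 (31, 23 and 8 against 413 and 79) and Gata3 (76, 36 and 16 against 638 and 261) rose by 3.80 and 4.06 in the authors' deposited table. Their libraries did not overlap. Esx1 rose by 4.90, Tead4 by 1.54 and Ets2 by 0.86 in the authors' deposited table. Tead4 lies on chromosome 6, away from which 7 of 10 trophoblast genes rose. Without KO-L3D A the limma fit called 5 of the 11 higher. Gcm1, Tfap2c and Ascl2, which act in labyrinth or early trophoblast, were not called, and their groups overlapped.

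Genes of the primitive streak and mesoderm and of endoderm were read next. Of 15 primitive streak and mesoderm genes, 10 passed the baseMean minimum, several only through the KO-L3D libraries, and 3 rose: Gsc, the organiser homeobox gene (4, 3 and 0 scaled reads against 66 and 23), Isl1 (4, 2 and 4 against 53 and 33) and Nkx2-5 (4, 6 and 3 against 61 and 38). Both KO-L3D libraries exceeded all WT libraries in 7 of the 10 and lay below them in 0. Over all genes with recovered reads these shares were 30.1% and 28.8%. Genes that pass the minimum only through KO-L3D lie above WT by that selection, so the counts are no separate support. The streak gene T had 10, 5 and 6 against 34 and 12 and was not called. Of 14 endoderm genes, 1 fell and none rose, with a median of -0.35. This list reads against WT B, which held Gata6 at 433 scaled reads against 12 and 10 in the other WT libraries and 140 and 42 in KO-L3D. Without WT B, the limma fit called 5 endoderm genes higher and none lower. The part of the high endoderm gene reads of WT B in this list was not tested.

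Neural genes went both ways. Among 9 neural precursor genes, Olig2 (281, 323 and 627 against 1697 and 2844) and Ncam1 rose by 2.26 and 1.78, and Cdh2, Pax6 and Map2 fell by 2.31, 2.22 and 1.10 in the authors' deposited table. Among 16 neuronal cytoskeleton and synapse genes 3 rose and 5 fell. Ina, the neurofilament subunit alpha-internexin, had 2216, 3248 and 2541 scaled reads in WT and 128 and 97 in KO-L3D, and fell by 4.71 ± 0.31 in the authors' deposited table (adjusted p 4.21e-48). Crmp1, which acts in axon growth, had 1873, 2259 and 1834 against 231 and 73 (fall of 3.97 ± 0.38, adjusted p 8.08e-23, in the authors' deposited table). Its promoter lies at a Suz12 region and has the most CG of the 4 printed. Another neurofilament gene, Nefm, moved the opposite way to Ina, with 111, 111 and 25 against 1504 and 978 and a rise of 4.44 in the authors' deposited table. Nefl and Tubb2b rose by 1.49 and 0.99, and Kif5c, Elavl3 and Map1b fell by 1.73, 1.65 and 1.62 in the authors' deposited table.

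Markers of fibroblasts, the cells on which ESC are often grown, were also read. Of 9, Thy1, Pdgfrb and Col5a1 rose and Col3a1 and Col1a2 fell. Col3a1, a defining collagen, had 24, 53 and 5 scaled reads in WT, 0 and 0 in KO-L3D, and 304 and 341 in KO-L. Summed scaled reads of the list were 749 to 1291 in WT and 2211 and 1264 in KO-L3D.

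**Figure D5:**
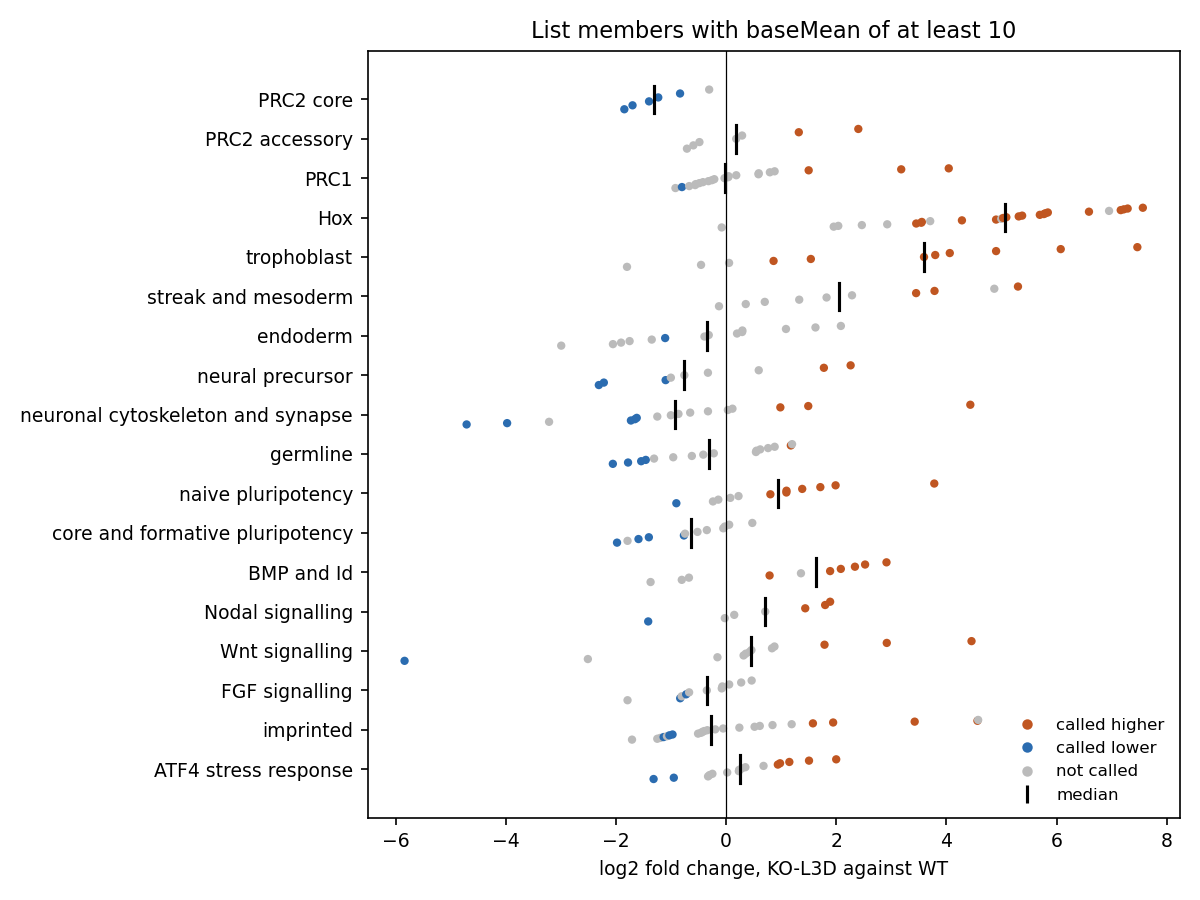
One point is one gene of a list (y axis) at its deposited log2 fold change of KO-L3D against WT (x axis), coloured by call, with a black tick at the list median. Hox and trophoblast medians lie at 5.06 and 3.59, PRC2 core at -1.31.

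Genes of naive pluripotency, the state of the early epiblast, were mostly higher: 7 of 12 rose and 1 fell, with a median of 0.95. Tbx3 had 589, 659 and 1340 scaled reads in WT and 10247 and 16876 in KO-L3D and rose by 3.78 ± 0.28 in the authors' deposited table (adjusted p 1.54e-37). Klf4 had 2587, 3321 and 4409 against 10261 and 15878 (rise of 1.71), and Prdm14 470, 341 and 675 against 1549 and 2431 (rise of 1.99). None of these groups overlapped. Tcl1, Nanog, Tfcp2l1 and Klf2 rose by 1.38, 1.10, 1.10 and 0.81, and Dppa3, an oocyte and naive-state gene, fell by 0.90 in the authors' deposited table. Nanog and Dppa3 lie on chromosome 6, and away from it 6 of 10 rose and none fell. The naive genes Esrrb (0.23), Zfp42 (0.08), Klf5 (-0.14) and Nr0b1 (-0.24) were not called. In KO 6 of the 12 rose, and in KO-L none. Of the 7 naive genes with recovered reads, the limma fit called 3 higher without WT C, WT A or KO-L3D B, 4 without KO-L3D A and 5 without WT B. Pou5f1 (-0.05) and Sox2 (0.48), the core pluripotency factors, were not called in the authors' deposited table.

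Of 12 core and formative genes, those of the general network and of the step after the naive state, 4 fell: Dnmt3a, Dnmt3b, Lin28a and Utf1, with a median of -0.63. Dnmt3a, a de novo DNA methyltransferase, had 3201, 6439 and 3723 scaled reads in WT and 1398 and 1145 in KO-L3D and fell by 1.98 ± 0.30 in the authors' deposited table (adjusted p 2.98e-09). It was below KO-L (difference -2.43, adjusted p 1.62e-06), and from KO the difference was -1.46 (adjusted p 0.0658). Dnmt3b fell by 1.59 and Lin28a by 1.40, and both were below KO-L as well (adjusted p 0.00353 and 0.000361). Among 8 DNA methylation and TET genes, Tet2 rose by 1.00 in the authors' deposited table, though its groups overlapped (1246, 1499 and 3509 against 3269 and 6704), and Dnmt1 was not called (-0.42).

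Of the signalling lists, that of BMP had the most genes higher. BMP ligands signal through SMAD proteins to the Id genes, which hold back differentiation factors; 6 of 10 members rose and none fell, with a median of 1.63 (KO 0.90, KO-L 0.77). The ligand gene Bmp4 had 241, 366 and 355 scaled reads against 1433 and 1693 (2.08 ± 0.33, adjusted p 2.75e-08 in the authors' deposited table). The target Id3 had 394, 503 and 282 against 2439 and 2003, and Id4 217, 113 and 226 against 956 and 1579. They rose by 2.52 and 2.91 in the authors' deposited table, without overlap, and Id4 exceeded KO-L by 2.74 and KO by 1.98 (adjusted p 0.00266 and 0.0113). The inhibitory SMAD genes Smad6 and Smad7 rose by 2.34 and 1.89. Id2 (2067, 1754 and 565 against 3028 and 1016) was called higher at 0.79, but its groups overlapped, and in the limma fit its log2 difference was -0.12 without WT B and -0.32 without KO-L3D A. Id1 was not called.

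Nodal pathway genes split. Of 7, 3 rose, among them Smad7 and Lefty2, and Lefty1 fell. Lefty1 and Lefty2 encode related Nodal inhibitors that lie next to each other on chromosome 1. Lefty2 had 4188, 3093 and 2057 scaled reads against 10716 and 7453 (rise of 1.80), and Lefty1 4754, 3401 and 2567 against 1201 and 1063 (fall of 1.41 in the authors' deposited table). Their reads can be hard to separate where the copies are alike, and how the authors' counting treated this is not given in the sources used here. Among 12 Wnt pathway genes, Cdx1, Wnt6 and Sfrp1 rose by 4.46, 2.92 and 1.79 in the authors' deposited table. Lef1, a transcription factor at the end of the pathway, had 346, 1001 and 201 against 26 and 1 and fell by 5.84 ± 0.56 (adjusted p 3.02e-22 in the authors' deposited table). The difference was -6.49 from KO-L (adjusted p 7.12e-16), -5.05 from KO (adjusted p 5.2e-09) and -4.29 from KO-S3D (adjusted p 2.94e-05). In KO-S, Lef1 was low as well, with 16 and 13 scaled reads and a fall of 4.95 ± 0.57 in the authors' deposited table (adjusted p 2.89e-15); the difference from KO-S was not tested. Of 11 FGF pathway genes, Spry4 and Etv5, both targets, fell by 0.83 and 0.72 and none rose. This share, 18.2%, is near the 18.4% called over all genes.

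Germline genes, many of which are silenced by DNA methylation in ESC, included 4 that were below their level in KO. Of 16, 1 rose and 4 fell in KO-L3D, while 8 rose in KO. The share called in KO-L3D was 31.2%, against 18.4% over all genes. Without WT B the limma fit called 4 higher and 2 lower; summed scaled reads of the list were 12934 in WT B, 6078 and 4907 in WT C and A, and 6592 and 6542 in KO-L3D. Ddx4, the germ cell helicase gene, had 886, 977 and 980 scaled reads in WT, 351 and 162 in KO-L3D and 1379, 1195 and 1185 in KO. It fell by 2.05 ± 0.38 against WT (authors' deposited table, adjusted p 3.92e-06) and was below KO (difference -2.44, adjusted p 1.62e-05). Mael, Sycp1 and Dmrt1 were also below KO, with differences of -2.59, -2.11 and -1.83 (adjusted p 0.00253, 0.0316 and 0.0328). Of 3 measured genes of the two-cell embryo state, all Zscan4 copies whose reads can be shared, none was called, though their median was 3.12. Their summed scaled reads were 38, 41 and 3 in WT and 263 and 21 in KO-L3D, so library B lay within the WT range. All 3 were called higher in KO, KO-L and KO-S3D. Of 5 Rhox genes 3 rose, led by library A: Rhox6 had 178, 114 and 51 against 2260 and 204, and Rhox9 170, 103 and 36 against 2320 and 161. For Rhox9 library B lay within the WT range, and without WT B the limma fit called none of the 5 higher.

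Imprinted genes, expressed from one parental copy, went both ways: 4 of 24 rose and 3 fell, with a median of -0.27. The share called was 29.2%, against 18.4% over all genes. The growth factor gene Igf2 rose by 4.56 ± 0.37 in the authors' deposited table (adjusted p 1.4e-31), and its library values were not recovered. Plagl1, a growth regulator, had 193, 175 and 113 against 1935 and 1228 (rise of 3.43). Slc22a18 and Kcnq1ot1 rose by 1.94 and 1.58, and Mest, Peg3 and Peg10 fell by 1.13, 1.03 and 0.97 in the authors' deposited table; Mest and Peg10 lie on chromosome 6. Igf2 exceeded KO-L by 2.39 (adjusted p 7.17e-05). Cdkn2a, the only 1 of 10 cell cycle inhibitor and D cyclin genes called, had 118, 109 and 53 against 643 and 391 and rose by 2.70 in the authors' deposited table, beside 2.88 in KO and 2.10 in KO-L. Ccnd2 showed the split between libraries, with 166, 267 and 343 in WT, 2493 in KO-L3D A and 145 in B, and was not called.

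The ATF4 stress response, which raises amino acid synthesis and transport genes, had 5 of 16 genes higher and 2 lower. Atf5 had 254, 334 and 765 scaled reads against 2101 and 2027 and rose without overlap (adjusted p 2.94e-06 in the authors' deposited table). Chac1 had 972, 883 and 3384 against 2255 and 5069 and Ddit3 245, 186 and 576 against 346 and 1244, so KO-L3D A lay inside the WT range in both. WT B was again the high WT library. KO-L lay far below, with Chac1 at 63 and 199, and 8 of the 16 were higher in KO-L3D than in KO-L (largest difference 4.92, Chac1, adjusted p 3.7e-23). Against KO 4 were higher, among them Atf5 by 1.94 (adjusted p 0.0253). Of 9 interferon-stimulated genes, Irf7 rose (3, 1 and 1 against 58 and 12) and Ifitm3 fell. This share, 22.2%, is near the 18.4% called over all genes. Irf7 passes the baseMean minimum only through the KO-L3D libraries, so that it lies above WT follows from that selection.

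Among genes with baseMean at or above the median of 568.5, the largest rises beyond Hand1, Esx1, Igf2, Tbx3, Eomes and Plagl1 were Meis2, Fetub, Tns1, Ptges, Arl14epl and Snhg11. Meis2, a homeobox partner of Hox proteins, had 71, 57 and 48 scaled reads against 868 and 1756 and rose by 4.53 in the authors' deposited table. Fetub had 46, 53 and 137 against 1455 and 2707 (4.50), and Ptges, the prostaglandin E synthase, 117 in each WT library against 3382 and 1085 (4.01). The largest falls after Ina included Sema3e, an axon guidance ligand (1641, 1963 and 1228 against 115 and 77, fall of 4.08), and Tagln, an actin-binding protein of smooth muscle (2948, 2864 and 700 against 110 and 82, fall of 3.94 in the authors' deposited table). Ptch1, the hedgehog receptor and a hedgehog target, had 8356, 8926 and 8173 against 976 and 933 and fell by 3.19 ± 0.28 in the authors' deposited table (adjusted p 2.79e-27). Fndc3c1, Frem2, Elmo1, Bnip3, Pim2 and Actn3 fell by 3.99, 3.15, 3.10, 2.85, 2.79 and 2.76 in the authors' deposited table. In each of these rises and falls with recovered reads, the KO-L3D libraries lay on one side of all WT libraries. The genes were chosen for large called changes. Among all called genes with recovered reads, 97.3% of those higher and 98.7% of those lower show this too.

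Genes near deposited Polycomb regions were then counted. The deposited lists hold 2865 Suz12 and 6882 H3K27me3 regions from DiffBind; their headers do not say with what WT was compared, in which direction a region changed, or on which build, and mm10, which the submitters' processing notes name, was assumed. Of 11918 genes placed by a RefSeq start site (78.6% of 15166), 1220 lay within 2500 bp of a Suz12 region, of which 207 were higher (17.0%) and 74 lower (6.07%). Genes near H3K27me3 regions alone numbered 1265, with 11.4% higher and 6.72% lower, and 9433 genes near neither had 6.19% higher and 11.0% lower. The medians were 0.41, 0.20 and -0.10. At Suz12 regions KO had a median of 0.65, KO-L 0.56, KO-S -0.01 and KO-S3D 0.06. With a baseMean minimum of 100 in place of 10, 24.0% of genes at Suz12 regions were higher and 9.42% lower, against 6.06% and 13.1% of genes near neither. The largest rises there were Esx1, Igf2, Meis2, Tns1, Eomes and the antiviral gene Zc3hav1 (946, 584 and 1016 against 4838 and 8212; 3.01 in the authors' deposited table). Crmp1, Frem2, the forkhead gene Foxp1 (2338, 3220 and 2664 against 430 and 489), Lrp2, Prtg and Ddx4 were the largest falls there.

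Differences between KO-L3D and the related lines were tested gene by gene as the difference of the deposited log2 fold changes over their combined SE. Since both share WT, the WT spread enters as if it were independent. Against KO-L, the same isoform without the mutation, 711 of 14561 genes differed (4.88%), 256 higher in KO-L3D (1.76%) and 455 lower (3.12%). A direct limma fit without WT called 3429. With baseMean at or above 568.5 the largest positive differences were Chac1, Ubap1l (4.62), Nupr1 (4.29), Fetub (4.20), Hand1 and the GABA receptor gene Gabbr1 (3.53). Tagln (-6.23), Fndc3c1 (-5.57), the matrix gene Thbs1 (-4.79), Sema3e (-4.47) and Ina (-4.29) were among the largest negative ones. Thbs1 had 2150, 2324 and 662 scaled reads in WT, 421 and 119 in KO-L3D and 5272 and 7205 in KO-L, so KO-L and KO-L3D lay on opposite sides of WT.

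Against KO, which has no rescue, 167 of 14802 genes differed (1.13%), 56 higher (0.378%) and 111 lower (0.75%) in KO-L3D. A direct limma fit of the libraries of these lines, without WT, called 3139 genes, so the low count does not show that the lines are alike. With the same minimum and besides Hand1, the largest positive differences were Snhg11 (3.65), the ubiquitin ligase gene Mid1 (3.08; 9069 and 11198 scaled reads in KO-L3D against 716, 998 and 1656 in KO), Malat1 (2.88), Trh (2.68) and Cnpy1 (2.62). The noncoding RNAs Malat1 and Snhg11 were also higher than WT in KO-S3D, by 2.27 and 2.98 in the authors' deposited table of that line. The largest negative ones were Tagln (-3.60), Fndc3c1, Ddx4 (-2.44), Bnip3 (-2.37), the p53 target Pmaip1 (-2.26) and Crmp1 (-2.20). Of the 167 genes, 44 (26.3%) lay on chromosome 6, where 4.71% of tested genes lie, and 36 of these were lower genes of the Agk to Stambp stretch; leaving out chromosome 6 gave 100 genes. Against KO-L, 85 of 711 lay on chromosome 6, 48 of them lower in the stretch.

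Against KO-S3D, the other line with the mutation, 8 of 14798 genes differed (0.0541%), 4 higher (0.027%) and 4 lower (0.027%) in KO-L3D, and 249 had an unadjusted p under 0.05. Higher were the hormone precursor gene Trh (difference 2.31, adjusted p 0.00193), Emp1 (2.78, 0.0251), Nefl (2.59, 0.0223) and the semaphorin receptor gene Nrp2 (2.12, 0.0335). Against WT, Nrp2 was not called in KO-L3D (0.22) and was called lower in KO-S3D (-1.90) in the authors' deposited tables. The lower ones included Lef1, Ina (-3.03, 2.94e-05) and Nod1 (-4.25, 1.4e-07). Nod1, named after its values were seen, lies in the lowered stretch, and Trh and Emp1 lie elsewhere on chromosome 6. The KO-S3D libraries differed from each other 2-fold or more in 9.7% of genes, and the low count does not show that both mutant lines act alike. A direct limma fit called none, with 1029 genes at an unadjusted p under 0.05.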

How the data were processed

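Polyadenylated RNA of mouse ESC was sequenced, and the authors deposited a table of statistics for each line against WT. Bowtie, TopHat, DESeq2 and DiffBind and the builds mm10 and dm3 are named, without versions or roles, per the submitters' processing notes. In the deposited tables baseMean is a signal (mean normalised reads), the fold change and its SE are log2 values, the test statistic is a score, and the p-value and its adjusted form are given, per the file headers. The deposited region lists carry a value from 0 to 1 per region that the headers do not explain and that was not used. All columns of per-sample values were mapped (0 unused).

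Genes with baseMean of at least 10 and an adjusted p under 0.05 in the authors' table were called. The statistics stand in for a count test, because the tables hold no counts. Whole reads per library were recovered as the integers that give the baseMean of all 5 tables sharing WT. On simulated data 198 of 200 genes came back and 0 were wrong. Of 300 genes refitted, 300 gave the deposited log2 fold change within 0.001 with WT and KO-L3D libraries paired, 194 with the pairs crossed and 4 without pairs. Totals were 14251507 to 18159865 recovered reads per library. Genes that could not be recovered numbered 571, of which 453 had baseMean of at least 10000.

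The lines were compared by a two-sided normal test of the difference of deposited log2 fold changes, Benjamini-Hochberg adjusted over all genes that reach this baseMean in each of the compared tables. Alternatives used limma 3.58.1 on log2(scaled reads + 1) in R 4.3.3, and other steps Python 3.11.15, numpy 2.4.6, pandas 2.3.3 and scipy 1.17.1. Named were Suz12, measured list members, the 12 largest rises and falls with baseMean at or above the median, the 6 largest differences each way and the 6 largest changes each way at Suz12 regions, with some genes not reported here. Genes of chromosome 6, glycolysis, hypoxia and nuclear-retained RNA were chosen after their values were seen. The members and lists were chosen with earlier results of these data known.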

Additional observations from a re-analysis of the deposited data

Results flagged for a closer look

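The difference between KO-L3D and each related line under the same contrast with WT passed the test in 711 genes for KO-L, 167 genes for KO and 8 genes for KO-S3D. The genes with the largest differences are given in the report.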

How the results depend on the processing

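Fits by limma used genes with recovered reads, of which 2572 were called as reported (1239 higher, 1333 lower). Without a replicate block 4294 were called (2166 and 2128), with a pseudocount of 0.5 4258 (2141 and 2117), and with the replicate block 2685 (1441 and 1244). The deviations of the paired libraries correlated at 0.125 over genes, with 2 pairs. Leaving out 1 library gave 1509 to 5250 calls, 771 to 2701 higher and 698 to 2549 lower, with 1509 without WT C, 5250 without WT B and 1659 without KO-L3D A. With 1 KO-L3D library left out, the other is assumed to vary like the WT libraries. At an adjusted p under 0.01 the deposited table called 1558 genes (731 and 827), and 956 lower genes had an absolute log2 fold change of at least 1. The difference from KO-L gave 318 genes at 0.01 and 3429 in a direct limma fit, that from KO 66 and 3139, and 100 without chromosome 6. That from KO-S3D gave 4 and 0, and 3 without chromosome 6. Leaving out 1 library gave 14 to 25 Hox and 5 to 8 trophoblast genes higher, 3 to 5 naive genes higher and 1 to 3 PRC2 core genes lower. Without chromosome 6 there were 0 naive, 1 imprinted, 1 ATF4 and 1 fibroblast genes lower. Genes at Suz12 regions called lower were 9.42% with a baseMean minimum of 100. Id2 turned to -0.12 without WT B and to -0.32 without KO-L3D A, and was 1.25 without KO-L3D B. Of 152 called genes named with reads, 93 kept direction and call without KO-L3D A and 140 without WT B. Where these values moved, the cause was not tested.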

Other observations

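Genes of glycolysis, a list chosen after its values were seen, were mostly lower: 10 of 16 fell, 3 rose and the median was -1.16, against -0.03 for all genes. The authors' deposited table put the largest falls at Ldha, the lactate dehydrogenase gene (-2.16), Pgk1 (-2.08), Pfkl (-1.63), Eno1 (-1.61) and Pkm (-1.53). Only 6 of the 16 have recovered reads, so most of the falls could not be checked by library. Of these 6, 3 lay above all WT libraries and 1 below in both KO-L3D libraries. Among all genes with recovered reads the shares were 30.1% above and 28.8% below. Hk2, the hexokinase gene, had 8955, 11173 and 6347 scaled reads in WT C, A and B and 2805 and 3677 in KO-L3D A and B; it lies in the lowered stretch of chromosome 6. Away from chromosome 6, 8 of 12 fell and 2 rose. The isoform genes Eno2, Hk1 and Pfkp rose by 2.40, 1.22 and 1.18 in the authors' deposited table. In KO 2 rose and none fell, and in KO-L none was called. Of the 16, 8 were below KO-L and 4 below KO, among them Pgk1 (difference -1.80, adjusted p 0.000156).

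Of 17 hypoxia-response genes, also chosen after their values were seen, 6 fell and 2 rose. Bnip3, a mitophagy receptor gene, had 4284, 4740 and 1963 scaled reads in WT and 801 and 230 in KO-L3D, and the oxygen sensor gene Egln3 had 1280, 1384 and 720 against 265 and 235. Vegfa and Ndrg1 rose by 1.53 and 1.05 in the authors' deposited table.

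RNAs known to be retained in the nucleus, chosen after their values were seen, were higher in KO-L3D in 6 of 7, with a median of 2.12. Malat1 had 2117, 1752 and 3698 scaled reads in WT and 9391 and 13543 in KO-L3D, and Neat1, the scaffold of paraspeckles, had 937, 485 and 729 against 2476 and 1998. In KO-S3D 6 of the 7 were also higher, and in KO, KO-L and KO-S none was. Xist had 3, 11 and 4 scaled reads in WT and 88 and 194 in KO-L3D, and the Y-linked gene Uty had 660, 23 and 907 against 520 and 789, so WT A was low.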
